A study of Mus musculus with 3 samples.

Results

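The Notch pathway genes Notch1, Notch2, Jag1, Jag2, Dll1, Hes1, Hey1, Hey2 and Heyl were examined for peaks of RNA polymerase II (RNAP2, the enzyme that transcribes protein-coding genes) and of Med12 (a subunit of Mediator, the complex that links enhancers to RNAP2). The 9 genes were taken by name from 22367 protein-coding genes of the annotation, by a list that was drawn up with earlier results of these data known. For each gene, every peak that overlapped the gene or came within 100 kb of its start was kept, which gave 39 of the 20479 RNAP2 peaks and 13 of the 10634 Med12 peaks. Chromatin came from distal forelimb cells of mouse embryos at E12.5, for which the labels name no mutation and no drug. The design text of the series gives E11.5, and the stage of the sample labels was used. There was 1 library for RNAP2 (labelled PolII), 1 for Med12 and 1 input library, whose data were not used here. The labels do not say how many embryos were pooled or which form of RNAP2 the antibody binds. The peaks may therefore not show all RNAP2 on a gene. With 1 library for each antibody no difference could be tested, so the values below describe these libraries, and the same measure over all protein-coding genes is given for comparison.

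Notch signalling passes between touching cells. A ligand of the Jagged or Delta-like family on the surface of a cell binds a Notch receptor on its neighbour, the receptor is cut by ADAM proteases and then by gamma-secretase, and the freed intracellular domain enters the nucleus, where it joins the DNA-binding protein RBPJ and a Mastermind protein to switch on genes such as Hes1 and the Hey genes. These encode basic helix-loop-helix repressors. In the limb bud the pathway is known for holding back the differentiation of cartilage progenitors and, through Jag2 in the apical ectodermal ridge, for the separation of the digits.

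RNAP2 lay at the start of most of these genes, and Med12 was about as frequent among them as among all protein-coding genes. An RNAP2 peak lay within 1 kb of the start (the outermost annotated 5′ end) of 6 of the 9 genes, namely Notch2, Jag1, Dll1, Hes1, Hey1 and Hey2, against 40.0% of protein-coding genes. A Med12 peak lay within 1 kb of the start of 1 of the 9, Hes1, against 8.20% of protein-coding genes, and Hes1 was also the 1 gene with both, against 7.58%. When every annotated start of a protein-coding transcript was allowed, Notch1 joined the genes with RNAP2, which made 7 of 9 against 41.8%. Jag2 and Heyl had no RNAP2 peak anywhere in the gene. A Med12 peak was present somewhere in the neighbourhood of 5 of the 9 genes, against 54.7%, and 7 of the 13 Med12 peaks belonged to Hes1, so that 6 were left for all the other members. These shares of 9 genes were not tested against those of all genes.

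**Figure D1:**
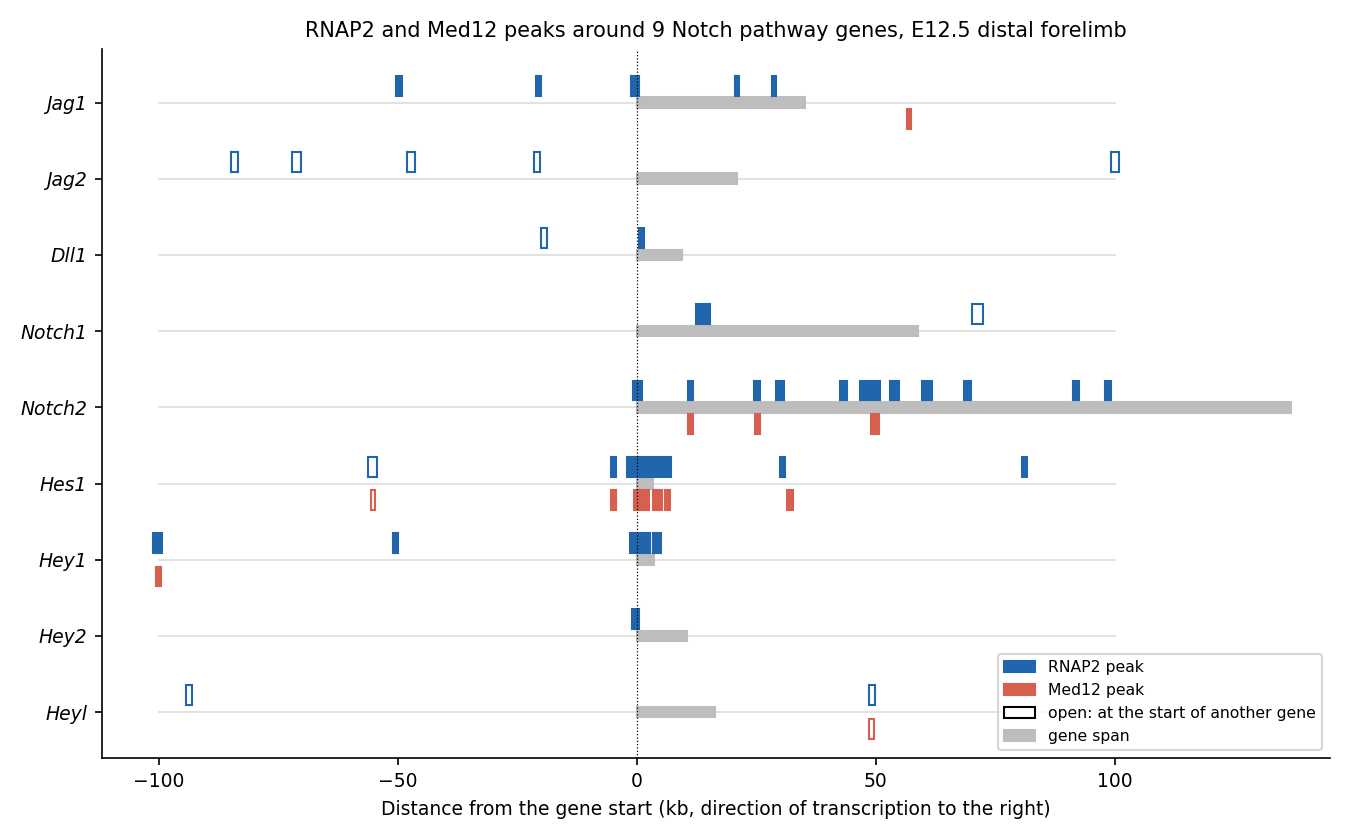
Position of every RNAP2 peak (blue, above the line) and Med12 peak (red, below the line) in kb from the start of each gene, with the gene drawn in grey to the right of 0, open boxes for peaks at the start of another gene, and peaks narrower than 1 kb drawn 1 kb wide. Of the 39 RNAP2 peaks, 11 are at Notch2, and of the 13 Med12 peaks, 7 are at Hes1, while Jag2 and Heyl have open boxes alone.

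Each peak was deposited with a score from the peak caller, which is -log10 of the p-value multiplied by 10. Wider peaks and deeper libraries give higher scores, so peaks were ranked only against others of the same list, and RNAP2 was never compared with Med12 by score. The lists hold no read counts, and the depth behind a peak is unknown. The p-value threshold that the authors list equals a score of 50, but the lists reach down to 40, and 4 of the 39 RNAP2 peaks (in Notch2, Jag1 and Hes1 neighbourhoods) and 2 of the 13 Med12 peaks (Jag1 and Hey1) scored below 50. Among the 8026 RNAP2 peaks at protein-coding gene starts the median score was 350, and among the 1593 Med12 peaks at such starts it was 66.5. RNAP2 scores reach a ceiling near 3100, a value that 311 peaks share and 18 exceed.

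The ligand genes differed widely in RNAP2. At Jag1, which encodes the ligand Jagged1, a peak 1668 bp wide that scored 1740 covered the start at 136942380 (chr2:136941997-136943664), and 89.9% of RNAP2 peaks at protein-coding gene starts scored lower. At Dll1, which encodes Delta-like 1, the peak scored 58.1, and 6.67% of start peaks scored lower. Thus Jag1 stood near the top and Dll1 near the bottom of the same list. The Dll1 peak (chr17:15512364-15513412) came no closer than 424 bp to the outermost 5′ end of the gene and covered the start of the coding transcript Dll1-001 at 15512940. It also lay within 1 kb of a start of the gene A930024N18Rik, and a peak list cannot say which of the genes it belonged to.

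Jag2, the Jagged ligand of the apical ectodermal ridge, had no RNAP2 peak in its 20906 bp (chr12:114146801-114167706). The nearest lay 20308 bp from its start at Gm17274, with a score of 295. The other RNAP2 peaks of the neighbourhood were at the starts of Cdca4, Btbd6, Brf1 and Pacs2, with scores from 338 to 937. The nearest Med12 peak was 663541 bp away, whereas the median distance from a protein-coding gene start to Med12 was 89381 bp. Of the 6 other protein-coding genes that start within 100 kb of Jag2, 3 had RNAP2 at a start and Nudt14, Gpr132 and Gm17723 had none, so that the lack of a peak was shared with some neighbours.

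Jag1 had further RNAP2 peaks away from any annotated start, here called distal. Those inside the gene scored 40.6 at 28244 bp and 50.0 at 20429 bp from the start, and both overlapped exons. Those upstream scored 46.9 at 20126 bp and 215 at 49129 bp, in sequence without an annotated gene (chr2:136962506-136963410 and chr2:136991509-136992888). None of these overlapped a Med12 peak. The 1 Med12 peak of the Jag1 neighbourhood lay 56641 bp downstream of the start, in an exon of 2210009G21Rik, with a score of 41.4, close to the lowest score in the list, 40. All but the peak at 49129 bp had low scores, the median of all distal RNAP2 peaks being 76.2.

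Sequences upstream of the Jag1 and Jag2 starts are shown because these are ligands of 1 family with opposite RNAP2 calls. Each runs for 250 bases up to the base before the start of the lowest-numbered coding transcript, 5′ to 3′ on the strand of the gene, in mm9 coordinates. Capitals mark CACGCG on either strand, a class C site to which Hes and Hey repressors can bind. The site of Jag2 lies past the start, at positions 19 to 24, and is not in the sequence shown.
Jag1 upstream, chr2:136942381-136942630 (-): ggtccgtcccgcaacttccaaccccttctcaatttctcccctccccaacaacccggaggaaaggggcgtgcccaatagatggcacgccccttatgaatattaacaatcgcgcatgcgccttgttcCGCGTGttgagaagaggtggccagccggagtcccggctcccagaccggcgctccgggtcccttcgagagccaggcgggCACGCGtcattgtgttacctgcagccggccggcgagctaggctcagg
Jag2 upstream, chr12:114167707-114167956 (-): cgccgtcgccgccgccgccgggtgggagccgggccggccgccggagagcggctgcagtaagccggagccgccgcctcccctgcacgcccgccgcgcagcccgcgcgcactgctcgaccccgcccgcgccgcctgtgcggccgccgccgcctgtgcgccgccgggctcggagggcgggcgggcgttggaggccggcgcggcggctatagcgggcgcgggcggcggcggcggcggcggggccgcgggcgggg
In the window from 250 bases before the start to 50 bases after it, Jag1 had 24 CpG dinucleotides and Jag2 had 63, and 0.0358% of 22362 such windows had at least as many. Jag2 was 86% G and C. Of 293 windows with at least 80% G and C, 60.4% had an RNAP2 peak at a coding start, although few of these windows reached the CpG content of Jag2. Whether the composition or the mapping of the reads had a part in the Jag2 result was not tested.

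Of the receptor genes, Notch2 had RNAP2 peaks at its start and along the gene, and Notch1 had them at an internal start alone. At Notch2 a peak 1931 bp wide that scored 1202 lay over the start (chr3:97816695-97818625), and 82.7% of start peaks scored lower. Inside the gene, which spans 136830 bp (chr3:97817461-97954290), there were 10 more RNAP2 peaks with scores from 47.4 to 372 and a median of 92.8. None of them lay near an annotated start, 8 overlapped no exon, and 7 had their centre in the 5′ part of the gene before its midpoint. The last peak ended 37673 bp before the end of the gene. The part of the antibody in this was not tested. RNAP2 peaks covered 13.3% of Notch2. Among 1068 protein-coding genes of at least 100 kb with RNAP2 at the start, the median share was 1.28% and the median number of peaks in the gene 2, and 41 had a share at least as large and 87 at least as many peaks. Notch2 was thus among the long genes with the most RNAP2 peaks inside the gene. With a score of at least 100, 6 of its 11 RNAP2 peaks and 1 of its 3 Med12 peaks were left.

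Med12 overlapped 3 of the 10 distal RNAP2 peaks of Notch2. The first was 10601 bp from the start, with scores of 81.1 for RNAP2 and 94.2 for Med12. The second was at 24599 bp, with scores of 105 and 51.5. The third, at 46717 bp, was an RNAP2 peak 4128 bp wide that scored 346 (chr3:97864178-97868305), over a Med12 peak 1639 bp wide that scored 146. It was the widest distal RNAP2 peak of the 9 genes. The highest intragenic RNAP2 score, 372 at 52896 bp, belonged to a peak without Med12, and the neighbouring peak at 59707 bp scored 290. The peaks with Med12 all lay in introns of Notch2.

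**Figure D2:**
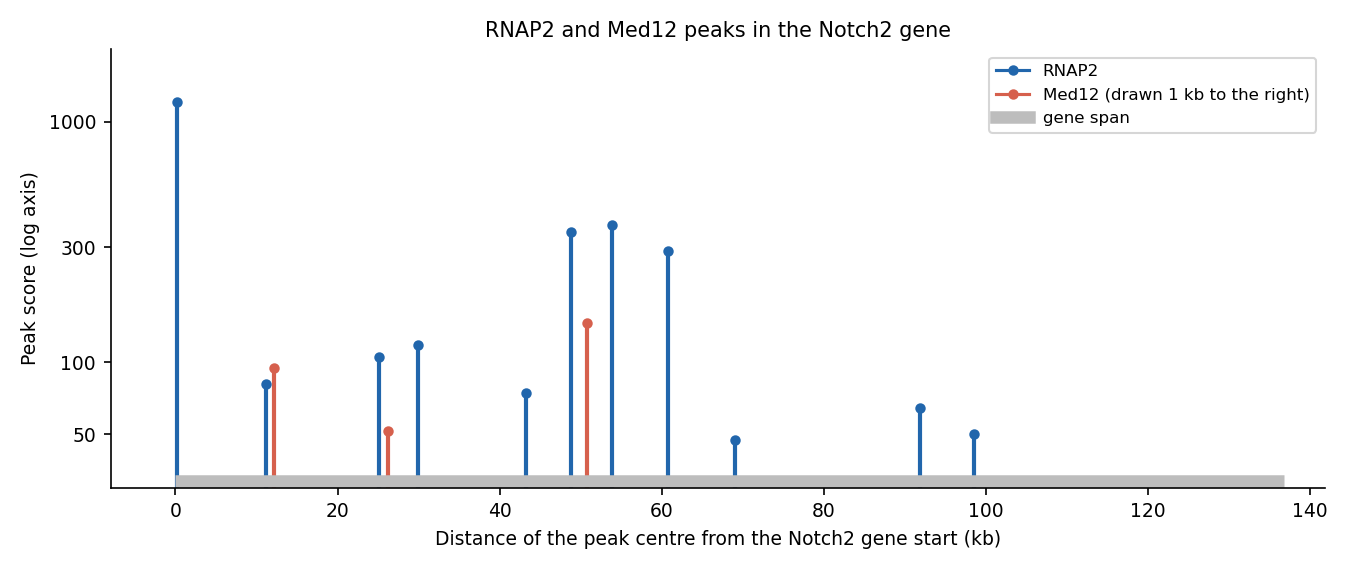
Score of each RNAP2 peak (blue) and Med12 peak (red, shifted 1 kb to the right so that it can be seen) on a log axis, against the distance of the peak centre from the Notch2 start in kb, with the gene in grey. The start peak has the highest score, 1202, the intragenic RNAP2 scores run from 47.4 to 372, and the 3 Med12 peaks stand beside RNAP2 peaks.

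The middle of the overlap in the third pair, 300 bases of intron, is shown as the intragenic site with the highest Med12 score. It held none of the motifs searched, and nor did the corresponding stretches of the other pairs. Each motif was found in at most 6.95% of such stretches at distal sites with RNAP2 and Med12 in the whole genome.
Notch2 intron, chr3:97867067-97867366 (+): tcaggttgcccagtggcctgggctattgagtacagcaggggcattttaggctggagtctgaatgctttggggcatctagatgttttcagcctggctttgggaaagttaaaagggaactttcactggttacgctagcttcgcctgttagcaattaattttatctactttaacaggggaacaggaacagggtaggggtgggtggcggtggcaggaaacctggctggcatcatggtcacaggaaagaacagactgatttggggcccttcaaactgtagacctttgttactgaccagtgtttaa
This stretch had 3 CpG dinucleotides, as many as the median of the 2663 stretches of this kind at distal sites with RNAP2 and Med12 in the whole genome. The start window of Notch2, by contrast, had 41, and the median of protein-coding start windows was 12.

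Notch1 had no peak at its outermost 5′ end, 26372183 on chr2. RNAP2 peaks with scores of 235 and 304 (chr2:26358695-26359915 and chr2:26356889-26358582) lay at the start of the coding transcript Notch1-001, which is 12841 bp inside the annotated gene. The first of them covered that start. No further peak lay in the remaining gene, RNAP2 covered 4.96% of it, and the median share was 1.82% for the 1291 protein-coding genes of 50 to 100 kb with RNAP2 at the outermost start. The nearest Med12 peak was 164075 bp away. The other RNAP2 peak of the neighbourhood, with a score of 1153, belonged to the starts of Sec16a and 0610009E02Rik.

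Hes1 had the highest RNAP2 score and the most Med12 peaks of the 9 genes. A single RNAP2 peak of 9209 bp (chr16:30062434-30071642) began 2036 bp upstream of the gene, covered all 3413 bp of it and ended 3760 bp past its end. Its score was 3100, and 96.7% of start peaks scored lower. Counting this peak, 43 of the 20479 RNAP2 peaks were at least as wide. For protein-coding genes under 5 kb with RNAP2 at the start, the median share of the gene under RNAP2 was 33.6%.

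This RNAP2 peak overlapped 4 Med12 peaks. Those at the start scored 142 (chr16:30063974-30064873) and 154 (chr16:30064934-30066919), the third scored 319 (chr16:30067917-30069660) and the last 50.6 (chr16:30070546-30071073). The highest Med12 score was therefore not at the start but just past the end of the gene, 3447 bp from the start, in sequence without an annotated gene, and it ranked at 227 among the 10634 Med12 peaks. Together the 4 peaks covered 56.0% of the RNAP2 peak. In the whole list 4435 RNAP2 peaks overlapped Med12, no RNAP2 peak overlapped more than 4 Med12 peaks, and 5 overlapped that many. The Med12 peaks at the Hes1 start lie close together, and such counts depend on where the caller divides peaks.

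**Figure D3:**
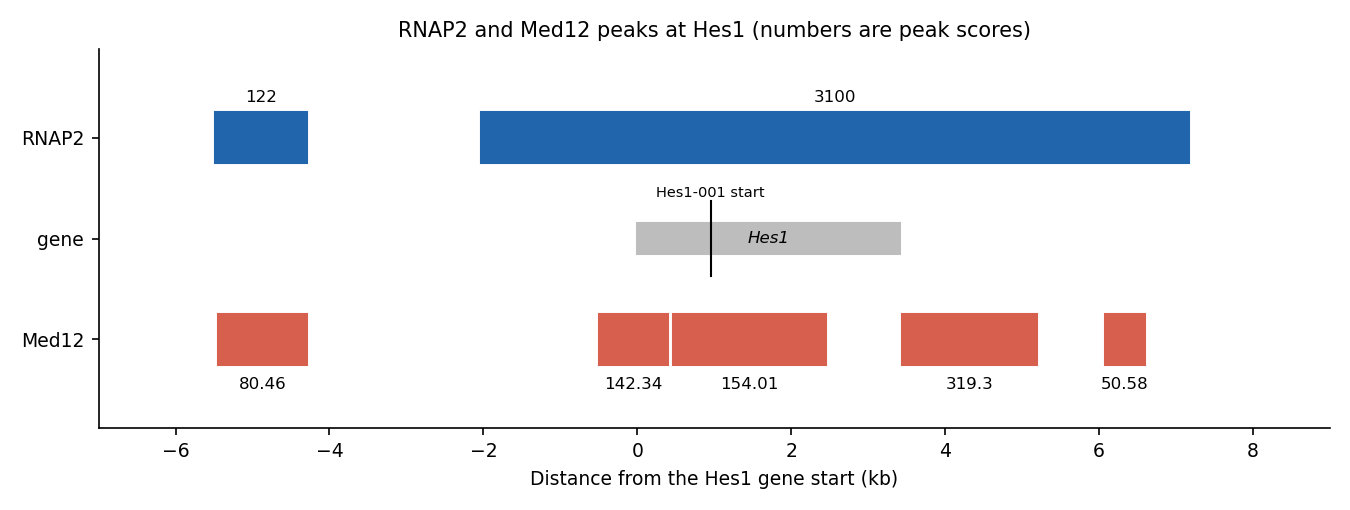
RNAP2 peaks (blue) and Med12 peaks (red) within a few kb of Hes1, in kb from the gene start, with the gene in grey, the start of Hes1-001 as a black line and the score of each peak printed beside it. The RNAP2 peak with a score of 3100 extends past both ends of the gene over 4 Med12 peaks, and a separate pair with scores of 122 and 80.46 lies upstream.

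A separate pair lay 4291 bp upstream of Hes1, with scores of 122 for RNAP2 and 80.5 for Med12, and no gene is annotated there (chr16:30058988-30060179). It was the 1 distal pair of the Hes1 neighbourhood, and it no longer counted as distal when 5 kb around starts was used. Another pair, with scores of 217 and 83.6, lay 54388 bp upstream, at the start of 4632428C04Rik. Downstream, RNAP2 peaks with scores of 40.3 at 30239 bp and 73.5 at 80631 bp had no Med12, and a Med12 peak with a score of 75.8 at 31387 bp had no RNAP2. In all, the Hes1 neighbourhood held 7 Med12 peaks, of which 3 had a score of at least 100. At least 7 Med12 peaks were found for 0.765% of protein-coding genes, the median being 1. The count of 7 also depends on where the caller divides peaks.

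Sequences are shown for the Hes1 start, for the middle of the Med12 peak with the highest score and for the middle of the upstream pair. The first ends before the start of Hes1-001, which lies 956 bp inside the annotated gene. The single run in capitals in the form GTGGGAA marks the core of the site that RBPJ recognises, at positions -81 to -75 on the strand of the gene. The other capitals, CGCGTG, are class C sites on the opposite strand. The other sequences are on the plus strand. Only exact matches were searched for, so variants of these sites are not marked.
Hes1 upstream, chr16:30065176-30065425 (+): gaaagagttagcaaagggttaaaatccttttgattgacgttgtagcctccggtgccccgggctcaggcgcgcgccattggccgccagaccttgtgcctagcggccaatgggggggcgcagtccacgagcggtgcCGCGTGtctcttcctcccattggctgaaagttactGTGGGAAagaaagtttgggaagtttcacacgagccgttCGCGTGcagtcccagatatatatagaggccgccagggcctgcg
Hes1 past the gene end, chr16:30068639-30068938 (+): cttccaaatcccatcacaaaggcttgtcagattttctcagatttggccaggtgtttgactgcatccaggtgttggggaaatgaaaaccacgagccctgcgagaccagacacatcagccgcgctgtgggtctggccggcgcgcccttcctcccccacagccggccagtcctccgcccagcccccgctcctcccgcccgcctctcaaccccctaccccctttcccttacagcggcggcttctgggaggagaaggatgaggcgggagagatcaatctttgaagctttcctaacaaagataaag
Hes1 upstream pair, chr16:30059450-30059749 (+): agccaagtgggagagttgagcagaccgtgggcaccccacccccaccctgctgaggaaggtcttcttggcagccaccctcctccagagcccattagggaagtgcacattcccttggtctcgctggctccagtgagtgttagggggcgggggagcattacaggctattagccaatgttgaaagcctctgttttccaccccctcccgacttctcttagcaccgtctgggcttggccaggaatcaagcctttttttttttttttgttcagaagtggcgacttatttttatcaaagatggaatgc
The stretch past the gene end had 15 CpG dinucleotides and that of the upstream pair 6. Neither held the RBPJ core, a class C site or the E box CACGTG.

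The Hey genes, which encode repressors related to Hes1, fell in an order from Hey1 to Hey2 to Heyl by the score at the start. Hey1 had RNAP2 peaks with scores of 854 and 496 at the start (chr3:8664296-8667302 and chr3:8667399-8668405) and another with a score of 106 over its 3′ end (chr3:8662027-8663672). These peaks left little of the short gene uncovered, with 83.1% of its 3678 bp under RNAP2. Of the start peaks, 74.8% scored below 854. Upstream of Hey1 an RNAP2 peak with a score of 51.9 lay at 49984 bp.

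A pair of both proteins lay 99460 bp upstream of Hey1, with scores of 179 for RNAP2 and 45.0 for Med12 (chr3:8766499-8768233). The Hey1 start was the nearest protein-coding start to it. It fell just inside the limit of 100 kb, held the 1 Med12 peak of Hey1 and was lost when a score of at least 50 was asked of both lists. The closest peaks outside the limit of any member were an RNAP2 peak at 106857 bp from Notch1, with a score of 376, and a Med12 peak at 106933 bp from Notch2, with a score of 60.4.

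Hey2, a gene best known from the heart and vessels, had a single RNAP2 peak with a score of 85.9 over its start (chr10:30562068-30563569), and 14.3% of start peaks scored lower. Nothing else lay within 100 kb, and the nearest Med12 peak was 267506 bp away. Heyl had no peak of either list in the gene (chr4:122910799-122927118). The nearest RNAP2 peak, at a start of Pabpc4, was 48644 bp from the Heyl start and overlapped Med12, with scores of 689 for RNAP2 and 69.3 for Med12, and an RNAP2 peak with a score of 556 was at Ppie. Neither Hey2 nor Dll1 kept its start peak when a score of at least 100 was asked of both lists, which left 4 of the 9 genes with RNAP2 at the start against 33.9% of protein-coding genes.

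Upstream sequences of the Hey genes are shown because RNAP2 differed among them. In Hey2 the capitals mark the RBPJ core on the opposite strand (TTCCCAC, positions -189 to -183), and in Hey1 a class C site. Heyl held none of the motifs.
Hey1 upstream, chr3:8667040-8667289 (-): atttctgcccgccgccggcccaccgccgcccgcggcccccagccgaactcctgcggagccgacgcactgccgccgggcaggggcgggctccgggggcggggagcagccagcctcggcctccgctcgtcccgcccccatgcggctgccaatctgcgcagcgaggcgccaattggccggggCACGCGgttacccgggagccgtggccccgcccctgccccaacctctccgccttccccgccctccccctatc
Hey2 upstream, chr10:30562608-30562857 (-): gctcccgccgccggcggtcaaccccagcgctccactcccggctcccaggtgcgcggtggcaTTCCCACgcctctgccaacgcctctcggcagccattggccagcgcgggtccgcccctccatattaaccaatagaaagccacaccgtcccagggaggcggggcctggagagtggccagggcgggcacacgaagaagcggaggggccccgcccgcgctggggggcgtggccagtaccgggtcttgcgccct
Heyl upstream, chr4:122910549-122910798 (+): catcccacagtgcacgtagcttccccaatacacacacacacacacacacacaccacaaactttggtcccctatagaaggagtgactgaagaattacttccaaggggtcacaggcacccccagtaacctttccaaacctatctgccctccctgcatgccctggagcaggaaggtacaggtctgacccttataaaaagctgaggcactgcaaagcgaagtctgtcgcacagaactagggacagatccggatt
Counted from 1 at the first base of the transcript, the RBPJ core also occurred at positions 19 to 25 of Hey1 and 15 to 21 of Hey2, beyond the sequences shown. The windows had 35 CpG dinucleotides for Hey1, 31 for Hey2 and 5 for Heyl. Of 7561 protein-coding start windows with at most 5 CpG dinucleotides, 6.84% had an RNAP2 peak at a coding start, and of 7612 windows with at least 20 the share was 74.0%. Heyl, without a peak in the gene, had the fewest CpG dinucleotides of the members. Jag2, also without a peak in the gene, had the most, 63. The part of base composition in these results was not tested.

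Over the 9 start windows of 300 bases, searched on both strands, the RBPJ core GTGGGAA occurred in 3, which were those of Hes1, Hey1 and Hey2. It occurred in none of the ligand and receptor windows. In 22362 protein-coding start windows the share was 5.92%, and it was 5.85% in the 9352 windows of genes with RNAP2 at a coding start. Hey2 held the core on both strands, and 0.201% of all windows held it at least 2 times. The class C site CACGCG occurred in 5 of the 9, those of Jag1, Jag2, Notch2, Hes1 and Hey1, against 11.8% of all windows and 19.6% of those with RNAP2. CACGCG itself holds CpG dinucleotides, and these 5 windows had from 20 to 63 of them. The member windows without the site had from 5 to 31. The median was 12 in all windows and 22 in those with RNAP2. The part of CpG content in this count was not tested. The E box CACGTG, another site of Hes and Hey proteins, occurred in none of the 9, against 7.85%. No match in these 9 windows overlapped a match of another motif. In 7 stretches of 300 bases at the middle of overlaps of RNAP2 and Med12, 5 at the distal pairs and 2 past the end of Hes1, none of the motifs occurred. At the 2663 distal overlaps of the genome the RBPJ core was found in 6.95%, the E box in 4.06% and the class C site in 2.10%. With shares this low, the lack of a match in 7 stretches says little. A match is a run of letters and does not show that a factor was bound. Only exact matches were counted, so variants of a site were missed.

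Distal RNAP2 peaks were found at 4 of the 9 genes, Notch2, Jag1, Hes1 and Hey1, against 40.7% of protein-coding genes, a share close to that of the members. Of the 39 RNAP2 peaks, 7 were at a member start, 2 at the internal start of Notch1, 10 at starts of other genes and 20 were distal, 13 of them inside a member gene. The distal RNAP2 scores ran from 40.3 to 372 with a median of 77.7, and the median of all 10692 distal RNAP2 peaks was 76.2. Of the 20 distal RNAP2 peaks, 5 overlapped Med12, and in the whole list the share was 25.0%. A distal RNAP2 peak with Med12 was found for 3 of the 9 genes, Notch2, Hes1 and Hey1, against 12.8% of protein-coding genes. From the Med12 side, 9 of the 13 peaks were distal and 7 of these overlapped RNAP2, and 32.5% of the 8567 distal Med12 peaks of the list did so. Of the 7, 5 lay on distal RNAP2 peaks and 2 under the wide RNAP2 peak at the Hes1 start. The Med12 scores of the 5 distal pairs ran from 45.0 to 146 with a median of 80.5, and in the whole list the median of Med12 peaks on distal RNAP2 was 89.1.

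The 45 other genes of the pathway were counted by role, and the counts of the roles were not tested against each other. An RNAP2 peak was at the start of 28 of them, against the 40.0% of all protein-coding genes, and a Med12 peak at the start of 5, against 8.20%. Of the other ligands and receptors (Notch3, Notch4, Dll3, Dll4 and Dlk1), 1 of 5 had RNAP2 at the start, Notch3 with a score of 76.8. Of the other Hes genes (Hes2, Hes3, Hes5, Hes6 and Hes7), 1 of 5 had it, Hes6 with a score of 1132. Among these genes Notch3 and Hes6 alone thus had a start peak, and their share was not tested against that of all genes.

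Of the 9 genes for the nuclear complex and its cofactors, 7 had RNAP2 at the start, against 40.0% of all protein-coding genes. The highest scores were 2512 at Maml1, a Mastermind coactivator, and 1943 at Ep300, a histone acetyltransferase, while the others, from Maml3 with 81.8 to Crebbp with 129, were below the median of start peaks. Maml3 also had Med12 at the start, with a score of 129. Rbpj itself, the DNA-binding protein, had a peak of neither list at its outermost 5′ end. At the start of a coding transcript it had RNAP2 with a score of 282 and Med12 with a score of 79.3.

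Of the 9 genes for receptor cleavage, 7 had RNAP2 and 3 had Med12 at the start, against 40.0% and 8.20% of all protein-coding genes. With a Med12 score of at least 50, 1 of these 3 was left. Adam17, which encodes an ADAM protease, scored 2854 for RNAP2 and 167 for Med12. The gamma-secretase subunits Aph1a and Aph1b scored 418 and 44.5, and 756 and 49.6, respectively. Adam10, the other ADAM protease gene counted, scored 206 for RNAP2, without Med12. Psen2 and Furin had no RNAP2 at the start. When coding transcript starts were allowed, Furin joined the cleavage genes with RNAP2, with a score of 91.1, which made 8 of 9. Of the 5 genes for glycosylation of the receptor, 4 had RNAP2, with scores from 73.5 at Poglut1 to 230 at Lfng, a Fringe enzyme, and none had Med12. Of the 12 genes for endocytosis, ubiquitination and inhibition, 8 had RNAP2, from Nrarp with 44.9, a feedback inhibitor, to Itch with 1016, a ubiquitin ligase, and Fbxw7, which marks the intracellular domain for degradation, had both proteins, with scores of 754 and 155. Among the 45 genes, the Med12 start peaks of Adam17, Maml3 and Fbxw7 had scores of at least 50, and those of Aph1a and Aph1b did not.

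**Figure D4:**
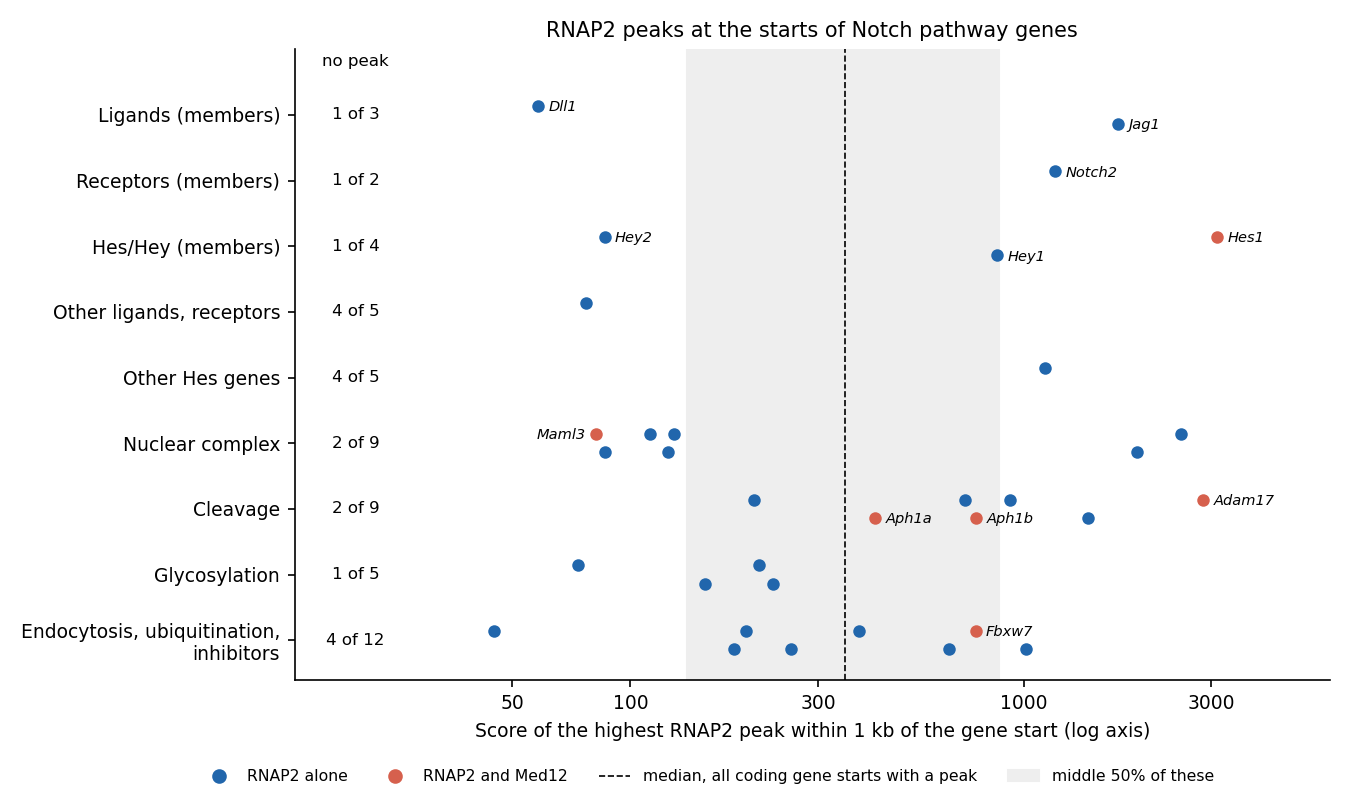
Score of the highest RNAP2 peak within 1 kb of the start of each gene (log axis), by role in the pathway, red where a Med12 peak was also at the start, with the number of genes without a peak at the left. The dashed line is the median of all RNAP2 peaks at protein-coding gene starts, 350, and the grey band their middle 50%, from 139 to 864. Hes1, Jag1 and Notch2 lie above the band, and Dll1 and Hey2 below it.

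Markers of the cell types that a dissected limb can hold were counted in the same way. RNAP2 was at the start of 6 of 6 genes of distal limb mesenchyme, with scores from 1726 to 3100, and of 2 of 4 genes of cartilage. It was at the start of 0 of 6 genes of surface ectoderm and apical ridge, where Jag2 is known to act, 1 of 6 of endothelium (Kdr, 148), where Hey2 is known to act, 0 of 4 of blood, 1 of 5 of muscle (Pax3, 283) and 1 of 5 of nerve and glia (Elavl4, 136). Fgf8, Krt5, Krt14, Trp63, Epcam and Cdh1 were the ectoderm genes. Among all protein-coding genes the share with RNAP2 at the start was 40.0%. When coding transcript starts were allowed, Pax7 joined the muscle genes with RNAP2, with a score of 62.9. In such a mixed population, fewer cells of a type cannot be told apart from less protein at a gene in each cell. The part of cell composition in the Jag2 and Hey2 results was not tested.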

How the data were processed

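RNAP2 and Med12 ChIP-seq of E12.5 distal forelimb cells was analysed from peak lists. Per the labels and methods, the authors cut the first base from the reads, aligned them to mm9 (Bowtie), discarded duplicates and then ran MACS 1.4.1 for peaks. The settings they list do not name the input as control. The deposited value of a peak is its score, and the lists reach down to 40, below the score of 50 that equals the p-value threshold the authors list. Scores below 50 made up 14.1% of the RNAP2 and 35.9% of the Med12 list. They hold no read counts, so that the depth behind a peak is unknown and no counting error can be given.

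Genes and transcripts came from GENCODE vM1 and sequence from NCBIM37, which is mm9. Distances and overlaps (at least 1 bp) were computed with Python 3.11.15 and numpy 2.4.6, and figures with matplotlib 3.10.9. A distal peak lay over 1 kb from every annotated transcript start. On lists with 200 planted start peaks and 200 planted distal pairs, the counting found all 200 of each. The planted peaks were placed to meet the rules, so this checked the counting alone. Genes, lists and motifs were chosen with earlier results of these data known, and every peak in a neighbourhood was counted. Alternatives were a higher score minimum, other start intervals and neighbourhoods, coding transcript starts and other overlap rules. No test was made, since each antibody has 1 library. The input library and signal tracks were not analysed here. Of the blood markers, Spi1 was not matched in the annotation.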

Additional observations from a re-analysis of the deposited data

How the results depend on the processing

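No paired analysis was possible because there are no replicates. Counts of members with RNAP2, Med12 or both at the start stayed within 1.5 times under the 4 alternatives tried for them. With a score of at least 100 in both lists, the neighbourhoods held 4 Med12 peaks and 1 distal RNAP2 peak with Med12, that of the Notch2 intron. Neighbourhoods of 200 kb held 65 RNAP2 peaks, 25 Med12 peaks and 10 distal pairs. The other 22 of these values were within 1.5 times. Of the values for single genes, 35 moved by more than that and 100 did not. With a score of at least 100, Notch2 RNAP2 peaks fell to 6, its Med12 peaks to 1 and Hes1 Med12 peaks to 3. The Hey1 pair was lost with a score of at least 50 and with neighbourhoods of 50 kb. Peaks below the deposited lists' lowest score cannot be seen, so the lack of a peak at Jag2 or Heyl is not the absence of binding.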
